A study of Rattus norvegicus with 8 samples.

Results

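The 8 genes described here, Acr, Acrv1, Spaca1, Izumo1, Zpbp, Zpbp2, Acrbp and Spam1, encode proteins of the sperm acrosome and of sperm-egg fusion. They were chosen by name, and each was found on the array through the RefSeq accession of its probes, among 15154 genes named in this way. They were measured by 9 probes, 2 of them for Zpbp2. The samples were testis cells sorted with an antibody to CD9 from transgenic Sprague-Dawley rats whose germ cells carry green fluorescent protein, a transgene that both groups shared. The young group held 4 samples from rats of 4 months and the aged group 4 samples from rats of 21 months, each labelled from 18 ng of total RNA and hybridised to 1 one-colour Agilent array. Separate animals are not named in the labels, and the spread behind every p-value may then be technical only.

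The acrosome is a secretory vesicle that the Golgi apparatus of the early spermatid, the haploid germ cell after meiosis, builds over the nucleus. It stores enzymes and binding proteins, and its exocytosis at the egg exposes the sperm membrane that fuses with the oocyte. Izumo1 on the sperm binds its receptor Juno on the egg, and CD9, the antigen used for this sort, is itself a membrane protein of the oocyte that fusion needs. On spermatogonia, the germ cells before meiosis, CD9 serves as a sorting antigen.

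Each value is the log2 of the processed signal of a probe minus the 75th percentile over the non-control probes of that array, so 0 marks a probe at that percentile. That percentile lay between 326 and 524 intensity units, and each array had 63.0% to 72.0% of its probes well above background. The arrays were on 1 slide with 1 scan time, each age in its own row, and row and age cannot be told apart. Young replicate 1 stood apart from its group. Across 10234 genes it correlated with the aged arrays at r = 0.985 to 0.989 and with the other young arrays at r = 0.962 to 0.973, while those other 3 correlated among themselves at r = 0.991 to 0.996. Genes are not independent replicates, and these values only describe the arrays. Calls among the 8 genes and the counts and medians of the sperm and cell-type lists are therefore given with and without this array.

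All 8 genes were well above background on every young array, and all but Acrv1 on every aged array. Spermatogonial markers were present as well. Of 20 markers of undifferentiated spermatogonia, 16 were matched on the array and 14 passed the filter on dim probes (not Lhx1 and Thy1). Epcam and Gfra1 had the smallest p of the 14 between the ages. Every one of the 8 acrosome and fusion genes had a lower mean in aged than in young samples, by 0.03 to 2.47 on the log2 scale, as did 36.6% of the 10236 genes tested. In the limma test with Benjamini-Hochberg adjustment over all genes tested, 0 of the 8 passed an adjusted p of 0.05, against a background of 0.655% of genes called in either direction and 0.156% called lower. At an unadjusted p under 0.05, 6 of the 8 were lower, against 13.6% of all genes. Acrv1, among these 6, passed the filter on dim probes through the young group alone, which favours a lower aged value. The median change was −0.94 for the 8 genes and 0.11 for all genes tested. In samples of mixed cells, fewer spermatids and less RNA per spermatid cannot be told apart.

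**Figure D1:**
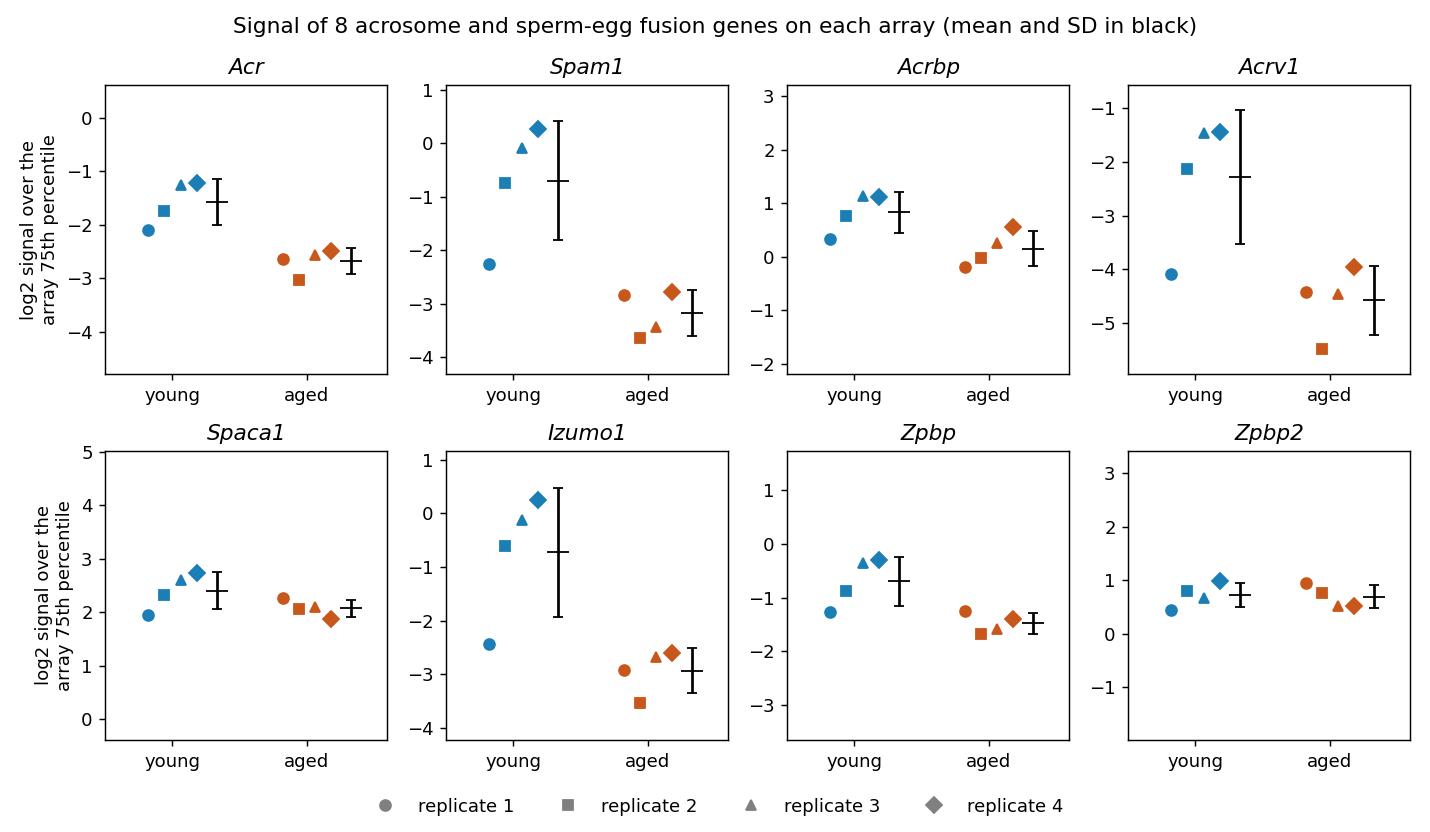
Log2 signal over the array's 75th percentile for each of the 8 genes (1 panel a gene, each spanning the same range of log2 units), with 4 young samples in blue and 4 aged samples in orange, the symbol giving the replicate and the black bar the mean and SD. Young replicate 1 lies nearest to the aged samples for Spam1, Izumo1 and Acrv1, and Zpbp2 lies at 0.45 to 0.98 in young and 0.51 to 0.96 in aged samples.

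The acrosomal enzymes and the partner of acrosin were considered first. Acr encodes acrosin, the serine protease of the acrosome. Its values were −2.11, −1.74, −1.25 and −1.22 in young replicates 1 to 4 and −2.64, −3.03, −2.56 and −2.49 in aged replicates 1 to 4. All aged samples lay below all young samples. The difference was −1.10 ± 0.22 (SE, n = 4 per group, 95% confidence interval −1.59 to −0.61, adjusted p = 0.0531), a signal 2.14-fold higher in young samples. Spam1 encodes PH-20, a membrane-anchored hyaluronidase that helps sperm through the matrix of the cumulus cells. It stood at −2.25, −0.74, −0.09 and 0.26 in young and at −2.84, −3.63, −3.43 and −2.77 in aged samples. The groups did not overlap, although young replicate 1 lay closer to every aged value than to any other young one. Spam1 had the largest difference of the 8, −2.46 ± 0.49 (95% confidence interval −3.57 to −1.36, adjusted p = 0.0531), or 5.52-fold.

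Acrbp encodes the protein that binds proacrosin, the precursor of acrosin, in the vesicle. Its young values were 0.33, 0.76, 1.13 and 1.11, and its aged values −0.19, −0.01, 0.25 and 0.57. Here aged replicate 4 lay above young replicate 1, so the groups overlapped. The difference of −0.68 ± 0.22 (95% confidence interval −1.18 to −0.18) did not pass (adjusted p = 0.0910).

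Acrv1 and Spaca1 encode structural proteins of the vesicle. Acrv1, also known as SP-10, is a protein of the acrosomal matrix and membrane. It stood at −4.10, −2.13, −1.47 and −1.45 in young and at −4.43, −5.49, −4.47 and −3.96 in aged samples. It was not well above background in aged replicate 2, so that value is close to the limit of the array. Young replicate 1 lay among the aged samples, and the difference of −2.30 ± 0.58 (95% confidence interval −3.60 to −0.999) did not pass (adjusted p = 0.0622). Spaca1 encodes an acrosomal membrane protein that spermatids need to form the vesicle. Its values were 1.95, 2.32, 2.60 and 2.74 in young and 2.26, 2.05, 2.11 and 1.88 in aged samples. These ranges overlapped, with a difference of −0.33 ± 0.18 (95% confidence interval −0.73 to 0.07, adjusted p = 0.228).

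Izumo1 encodes the immunoglobulin-domain protein that carries sperm-egg adhesion. Its young values were −2.45, −0.60, −0.12 and 0.26, and its aged values −2.92, −3.53, −2.68 and −2.60. The groups did not overlap, with young replicate 1 next to aged replicate 4. The difference was −2.21 ± 0.52 (95% confidence interval −3.38 to −1.03, adjusted p = 0.0561), or 4.61-fold. Acr, Spam1 and Izumo1 were the 3 of 8 genes whose aged samples all lay below the young ones, a pattern that 4.12% of the genes tested showed.

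Zpbp and Zpbp2 are paralogues whose products lie in the acrosomal matrix and were named for binding the zona pellucida. Zpbp stood at −1.27, −0.87, −0.35 and −0.30 in young and at −1.24, −1.68, −1.59 and −1.41 in aged samples, with only young replicate 1 inside the aged range. Its difference was −0.78 ± 0.22 (95% confidence interval −1.28 to −0.29, adjusted p = 0.0753). Zpbp2 was at 0.45, 0.80, 0.67 and 0.98 in young and at 0.96, 0.76, 0.53 and 0.51 in aged samples. Those values overlapped throughout, and the difference of −0.03 ± 0.15 had a 95% confidence interval of −0.38 to 0.31 (adjusted p = 0.893). With median scaling of the arrays the Zpbp2 difference turned positive, at 0.12. The second Zpbp2 probe, which was dimmer, read −1.97 ± 0.41 (SD, n = 4) in young and −2.28 ± 0.09 in aged samples, a difference of −0.31. The changes of the paralogues were compared after their values had been seen, using the difference between Zpbp and Zpbp2 within each array. It was 0.75 lower in aged samples for the brighter Zpbp2 probe (−1.72 to −1.02 in young, −2.44 to −1.92 in aged arrays), with a two-sided exact permutation p of 0.0286, the smallest that 4 against 4 arrays can give. Against the dimmer probe it was 0.47 lower (exact permutation p = 0.0571), and after adjustment over both comparisons neither passed (p = 0.0571 each).

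**Figure D2:**
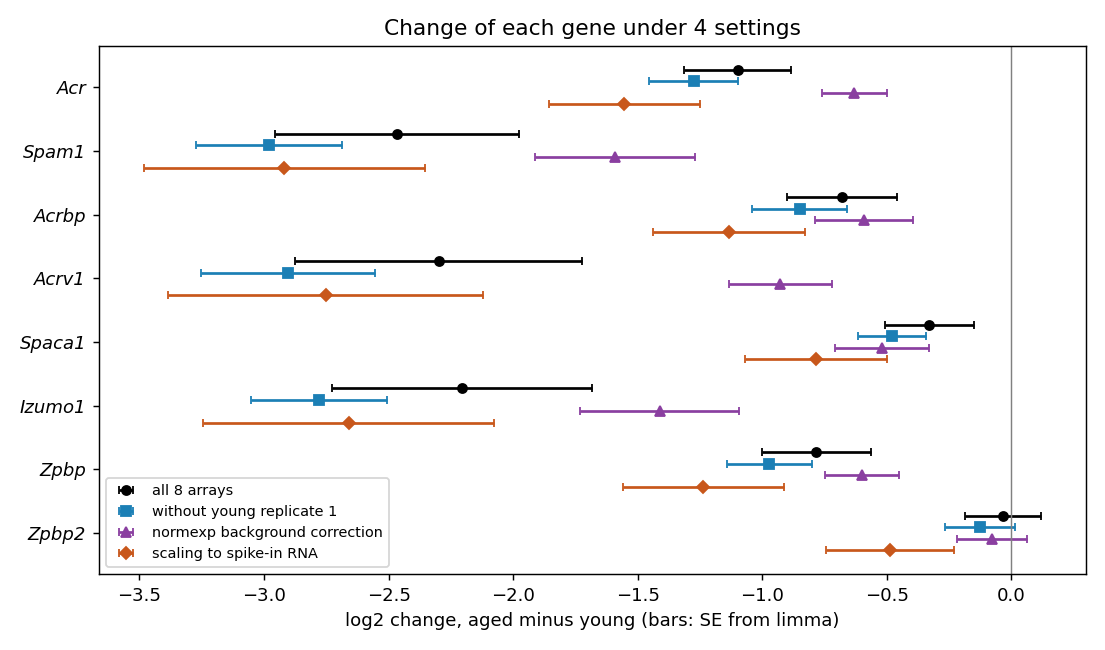
Log2 change, aged minus young, of each of the 8 genes with its SE from limma (horizontal bars), with all 8 arrays, without young replicate 1, with normexp background correction and percentile scaling, and with scaling to spike-in RNA. Zpbp2 lies nearest to 0 under each of the 4 settings, from −0.49 to −0.03, and the values of Acrv1 run from −2.90 to −0.93.

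Without young replicate 1 the differences of all 8 genes were wider, and 7 of the 8 passed as lower, against 14.6% of all genes tested under the same setting. They ran from −0.48 for Spaca1 (adjusted p = 0.0290) to −2.98 for Spam1 (adjusted p = 0.00301), and Zpbp2 did not pass (−0.13, adjusted p = 0.487). That array held the lowest young value of each gene, so leaving it out widens the differences by construction. Without any other single array, 0 of the 8 passed, while 6 of the 8 were lower at an unadjusted p under 0.05 each time. Under those settings 852 to 1376 of the 10236 genes tested were lower at that threshold. Background correction moved the largest differences too. After normexp with percentile scaling, Acrv1 stood at −0.93, Izumo1 at −1.41, Spam1 at −1.59 and Acr at −0.63, and these 4 and Zpbp (−0.60) passed, against 2.61% of all genes called lower under that setting. Acrv1, which passed here and without young replicate 1, met the filter through the young group alone.

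The genes also differed in how they varied from array to array. Pearson's r of each gene with the mean of the other 7, each centred on its own mean, was 0.976 to 0.993 for Acr, Acrv1, Izumo1, Zpbp and Spam1, 0.902 for Acrbp, 0.846 for Spaca1 and 0.343 for Zpbp2, over the same 8 arrays. The mean over the 8 genes lay between −0.95 and −0.41 in aged samples, at −0.31 in young replicate 1 and between 0.60 and 1.17 in the remaining young samples. The 10 other genes whose values followed that mean most closely were Fancd2osl1, Spaca4, Pdzk1ip1, Pabpc2, Spetex2f, Dusp13b, Slc35g3, Clec2d2l3, Ccdc89 and Camk4, with r of 0.997 to 0.999 over the 8 arrays. Spaca4 is an acrosomal membrane protein and Camk4 a calcium-dependent kinase present in spermatids. These correlations are descriptions of 8 arrays that share the contrast in age and the position of young replicate 1. They differed by −1.44 (Pabpc2) to −2.42 (Clec2d2l3), with adjusted p-values of 0.0561 to 0.0627.

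The wider set of acrosomal genes was described from lists of genes grouped by role. Of 24 genes for further contents and membrane proteins of the acrosome, 19 were tested, and 17 of them were lower in aged samples with a list median of −1.275 against 0.11 for all genes tested. Among these, 0 passed as lower and 14 were lower at an unadjusted p under 0.05, against 13.6% of all genes. Without young replicate 1, 15 of the 19 passed as lower, with a list median of −1.63, against 14.6% of all genes and a median of 0.17. The lysozyme-like Lyzl6 stood at −1.38 (adjusted p = 0.0542), the sperm acrosome associated Spaca5, well above background on 1 of 4 aged arrays, at −2.08 and Eqtn, which encodes the acrosomal membrane protein equatorin, at −2.24 (adjusted p = 0.0561 for both). Tex101, a membrane-anchored surface protein of germ cells that also stands in the spermatocyte list, rose by 0.75 ± 0.11 (adjusted p = 0.0465), in a fit that called 0.498% of genes higher. That call rests on the processing and on single arrays. It was lost under 14 of 23 alternatives, among them spike-in scaling (0.30, adjusted p = 0.315), no filter on dim probes (adjusted p = 0.11), the replicate block (adjusted p = 0.0773) and leaving out any 1 array other than young replicate 1 (adjusted p of 0.0693 to 0.169). Hyal5, a hyaluronidase like Spam1 and named after its values were seen, stood at −2.91 ± 0.68 (adjusted p = 0.0561) and was well above background on 1 of 4 aged arrays.

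Of 19 further genes of sperm-egg adhesion and fusion, 9 were tested and 8 of these were lower, with a list median of −1.215. None passed in limma, and 8 were lower at an unadjusted p under 0.05, against 13.6% of all genes. When young replicate 1 was left out, 8 of the 9 passed as lower, against 14.6% of all genes, with a list median of −1.73. The sperm head gene Spata46 stood at −2.18 (adjusted p = 0.0561), the disintegrin-family Adam32 at −1.63 (adjusted p = 0.0748), Tmem81 at −1.17 (adjusted p = 0.0787) and the complement regulator Cd46, which lies on the acrosomal membrane of rodent sperm, at −0.88 (adjusted p = 0.0886). Cd46 was well above background on 3 of 4 aged arrays. Cd81, a tetraspanin of the egg side, was the exception at 0.08 (adjusted p = 0.628). On the egg side, the sorted antigen Cd9 itself changed by −0.16 ± 0.16 (adjusted p = 0.492) and the zona pellucida gene Zp3 by 0.01 (adjusted p = 0.979), while Zp1, Zp2 and Zp4 did not pass the filter on dim probes.

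Genes for building the acrosome lay on both sides of 0. Of 18 such genes 12 were tested, 5 lower and 7 higher, where 36.6% of all genes tested were lower. The list median was 0.05, or −0.19 over 14 genes without the filter on dim probes, and 0 passed in limma. At an unadjusted p under 0.05, 5 were lower and 4 higher, against 13.6% and 17.8% of all genes. Without young replicate 1, 5 passed as lower and 1 as higher, against 14.6% and 22.3% of all genes, with a list median of 0.05. The 5 with lower values were Ccin (−1.53, adjusted p = 0.0911) and Actl9 (−1.19, adjusted p = 0.0958), proteins of the theca between acrosome and nucleus, with Capza3 (−1.20, adjusted p = 0.111), Actl7a (−1.13) and the intramembrane protease gene Sppl2c (−0.93). The 7 others lay between 0.00 and 0.44. They included Smap2 (0.44, adjusted p = 0.0602), an Arf regulator of vesicle traffic, the trafficking genes Vps54 (0.43) and Agfg1 (0.24), and the Golgi-associated Gopc (0.10) and Pick1 (0.00). Genes of this second kind act in many cell types. The names outside the 4 with the smallest p were given after their values were seen.

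**Figure D3:**
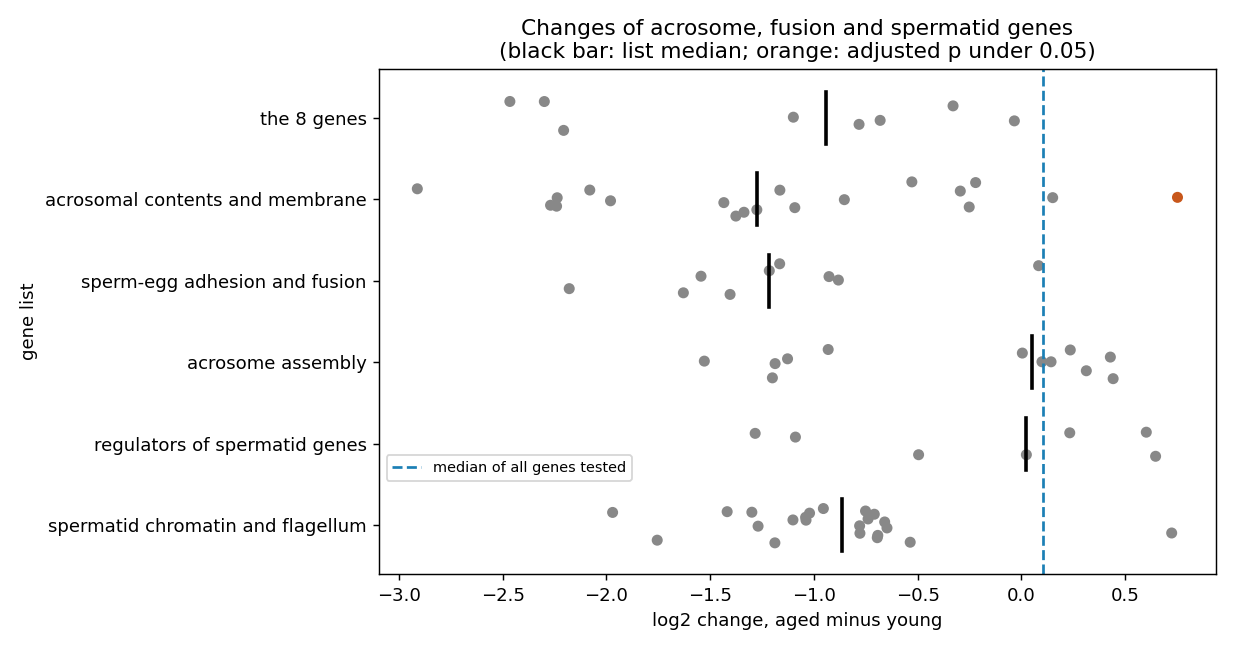
Log2 change, aged minus young, of each tested gene (points, spread vertically for legibility) in the 8 genes and in 5 related lists, with list medians as black bars and the median of all genes tested as a dashed line. Only 1 point is called, Tex101 at 0.75, and the acrosome assembly genes lie either at or below −0.93 or at or above 0.00.

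Among regulators known to act on spermatid genes, 7 of 12 were tested, 3 lower and 4 higher, where 36.6% of all genes tested were lower. The list median was 0.02. In limma 0 passed. At an unadjusted p under 0.05, 3 were lower and 2 higher, against 13.6% and 17.8% of all genes. After young replicate 1 was left out, 3 passed as lower and 2 as higher, against 14.6% and 22.3% of all genes. The list median was then 0.03. Crem, the cAMP-responsive activator of postmeiotic genes, stood at −1.09 ± 0.34 (adjusted p = 0.0859), and its coactivator Fhl5 at −1.28 ± 0.49 (adjusted p = 0.118). Rfx2, a factor of the X-box family that acts in spermatids, stood at −0.50 (adjusted p = 0.143). Tardbp, which encodes the DNA- and RNA-binding protein TDP-43, was at 0.65 ± 0.15 and the TFIID subunit gene Taf7l at 0.60 ± 0.14, with all aged samples above all young samples for both, as for 10.2% of genes (adjusted p = 0.0561 for each).

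Promoters of 3 of the genes are shown because most of the 8 genes varied together over the arrays. Pearson's r was 0.66 to 0.99 for the 21 pairs without Zpbp2 and 0.06 to 0.68 for the 7 pairs with its brighter probe. The 3 genes shown hold the longest matches to motifs of the factors above. RefSeq promoter sequences of build GRCr8, each with 250 bases before and 50 after the start of the gene, were matched for all 8 genes. They were searched on both strands for TGACGTCA (the full cAMP-response element, bound by CREM), the shorter site TGACG, which the full element contains on both strands, GTTGCC (an arm of the X-box of RFX factors), TTGCCATGG (the core where the arms of the X-box meet) and GTGTGT, which TDP-43 binds in the Acrv1 promoter of the mouse. Capitals mark every match, in the orientation of the gene.
Acrv1: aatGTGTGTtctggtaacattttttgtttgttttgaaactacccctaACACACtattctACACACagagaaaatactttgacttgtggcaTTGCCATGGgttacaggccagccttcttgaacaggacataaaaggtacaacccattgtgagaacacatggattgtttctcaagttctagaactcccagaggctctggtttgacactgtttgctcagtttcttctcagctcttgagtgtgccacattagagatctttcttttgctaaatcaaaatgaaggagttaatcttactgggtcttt
Izumo1: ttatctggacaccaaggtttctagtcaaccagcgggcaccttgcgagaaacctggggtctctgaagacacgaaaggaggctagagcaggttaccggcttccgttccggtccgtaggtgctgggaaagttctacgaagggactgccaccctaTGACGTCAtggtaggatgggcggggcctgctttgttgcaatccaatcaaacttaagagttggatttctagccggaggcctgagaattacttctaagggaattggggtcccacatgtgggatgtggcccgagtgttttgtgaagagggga
Spaca1: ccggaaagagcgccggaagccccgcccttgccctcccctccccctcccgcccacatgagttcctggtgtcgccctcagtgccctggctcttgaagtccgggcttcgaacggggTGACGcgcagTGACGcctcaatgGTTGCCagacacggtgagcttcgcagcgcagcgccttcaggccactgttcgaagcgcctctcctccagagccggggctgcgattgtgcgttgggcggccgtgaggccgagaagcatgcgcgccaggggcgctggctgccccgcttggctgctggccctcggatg
The Acrv1 promoter (chr8:44592996-44593295, plus strand) held TTGCCATGG from position −160 of the start and 3 matches to GTGTGT. The Izumo1 promoter (chr1:105227353-105227652, plus strand) held the full TGACGTCA from position −99. The Spaca1 promoter (chr5:53336808-53337107, minus strand) held 2 matches to TGACG and 1 to GTTGCC. Over all 8 genes, TGACG was found in 4 promoters, Acr, Spaca1, Izumo1 and Acrbp, and each other motif in 1. Of 33469 promoters of that length, 21.2% held TGACG, 1.83% TGACGTCA, 12.2% GTTGCC, 0.789% TTGCCATGG and 16.2% GTGTGT. A match describes letters in this window and says nothing about binding in these cells.

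Other transcripts of the spermatid and markers of other cell types were measured on the same arrays. In the list of spermatid chromatin and flagellum genes, 21 of 22 tested genes were lower with a median of −0.87, and 0 passed in limma. At an unadjusted p under 0.05, 12 were lower and 1 higher, against 13.6% and 17.8% of all genes. With young replicate 1 left out, 21 of the 22 passed as lower and 1 as higher, against 14.6% and 22.3% of all genes. The list median was then −1.22. The flagellar tektins Tekt4 (−1.755) and Tekt2 (−1.97) had the smallest p (adjusted p = 0.0561 for both), followed by Tekt1 (−1.30, adjusted p = 0.0848) and the kinase gene Tssk1b (−1.42, adjusted p = 0.0936). The mean of this list lay between −1.17 and −0.02 in aged samples, at −0.52 in young replicate 1 and between 0.44 and 0.998 in the remaining young samples. In the spermatocyte list 17 of 22 genes were higher and 5 lower, with a median of 0.74. Of these, 16 were higher and 4 lower at an unadjusted p under 0.05, against 17.8% and 13.6% of all genes. Lower were Ccna1 (−1.54), with all aged samples below all young samples, Pgk2 (−1.025), Ldhc (−0.94), Clgn (−0.50) and Hspa2 (−0.39). These 5 names were picked with the results known, because they ran against the rest. Called in limma were 8 higher and 0 lower genes, against 0.498% and 0.156% of all genes. The count called higher ran from 0 to 16 over 23 alternatives. It was 0 under 11 of them, namely no scaling, no filter on dim probes, unnamed probes tested too, the replicate block and leaving out any 1 array other than young replicate 1. Without that array it was 16, with 4 called lower, against 22.3% and 14.6% of all genes, and the list median was 0.70.

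Of the peritubular myoid and stromal markers, 11 of 13 were tested (not Cnn1 and Lum) and all 11 were lower, with a median of −1.47 and list means between −1.38 and −0.30 in aged samples, −0.67 in young replicate 1 and between 1.08 and 1.24 in the remaining young samples. In limma 0 of the 11 passed, and 11 were lower at an unadjusted p under 0.05, against 13.6% of all genes. All 11 passed as lower without young replicate 1, against 14.6% of all genes, with a median of −2.015. Col1a1 stood at −0.90 and Col3a1, well above background on 2 of 4 aged arrays, at −1.87. Of the macrophage markers, 9 of 12 were tested (not Itgam, Ptprc and Mrc1) and all 9 were lower, with a median of −0.75 and list means of −1.20 to 0.29, −0.45 and 0.58 to 0.94 in the same order. In limma 0 of the 9 passed, and 4 were lower at an unadjusted p under 0.05, against 13.6% of all genes. Of the 9, 6 passed as lower without young replicate 1, against 14.6% of all genes, with a median of −1.08. Adgre1, well above background on 3 of 4 aged arrays, stood at −1.97 and Coro1a at −0.50. Cd14 and Cd163 were well above background on 2 and 3 of 4 aged arrays. Like Col3a1, the genes Adgre1, Cd14 and Cd163 passed the filter through the young group alone, which favours lower aged values. Adgre1 and Cd14 were among the 4 macrophage markers lower at an unadjusted p under 0.05. The Sertoli, Leydig and endothelial lists had medians of 0.38 over 6 genes, −0.10 over 5 and −0.11 over 5. Without the filter on dim probes these medians were −0.12 over 13 genes, 0.01 over 8 and −0.11 over 7. The Sertoli genes Wt1, Gata4, Amh, Amhr2, Fshr, Cldn11 and Gdnf were on the array but did not pass that filter. Undifferentiated and differentiating spermatogonia had medians of −0.13 over 14 genes and 0.05 over 6. In limma these 5 lists held 1 call, the Sertoli gene Rhox5 (0.82, adjusted p = 0.0465), against 0.498% of all genes called higher. The Sertoli list held 0 calls when any 1 array other than young replicate 1 was left out. Without young replicate 1, the medians of these 5 lists were 0.18, −0.25, −0.05, −0.0068 and 0.13 in the same order. Called then were 1 lower and 2 higher Sertoli genes, 0 Leydig genes and 2 lower endothelial genes. Of undifferentiated spermatogonia 1 lower and 2 higher genes were called, and of differentiating spermatogonia 1 lower gene. That setting called 14.6% of all genes lower and 22.3% higher. The part of these other cell types in the differences of the 8 genes was not tested.

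**Figure D4:**
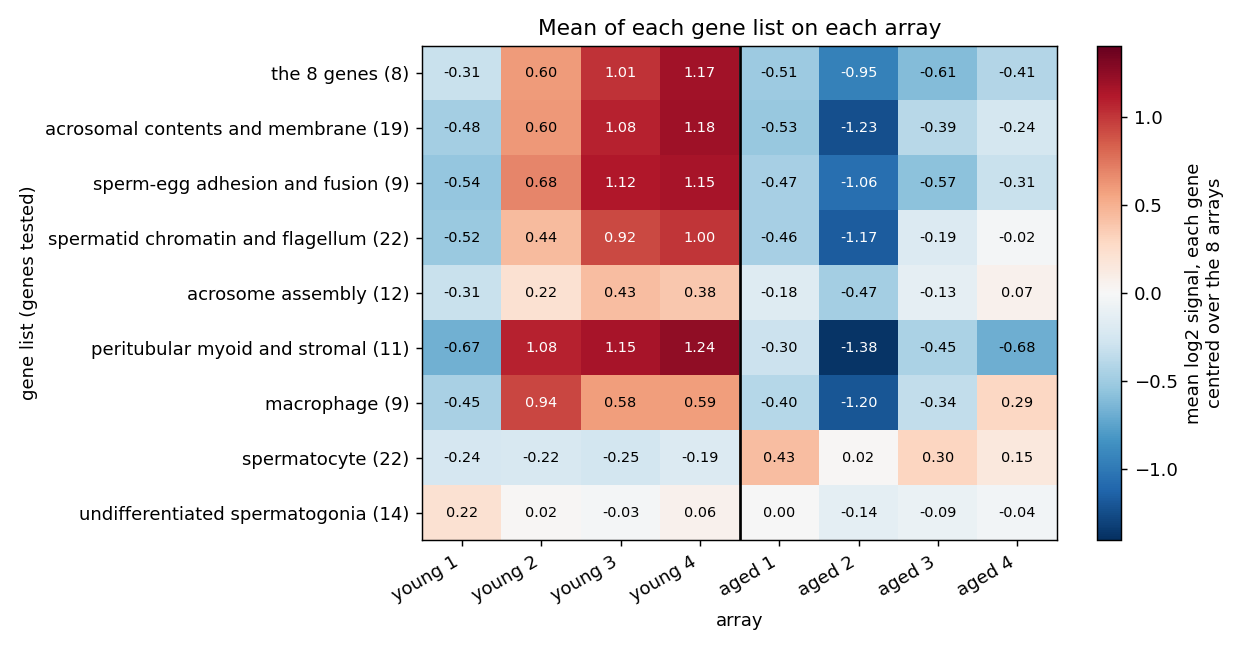
Mean log2 signal of each gene list on each array, with the genes centred first (colour scale and printed values, genes tested in parentheses), with young arrays left and aged arrays right of the line. The 8 genes, the acrosomal, fusion and spermatid lists, and the stromal and macrophage lists are all below 0 in young replicate 1 and lowest in aged replicate 2.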

How the data were processed

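Total RNA of CD9-sorted testis cells was measured on 8 one-colour arrays, in groups by labelled age. Agilent Feature Extraction 10.7.3.1 wrote the scanner output, per the file headers (version 12.5 in the submitters' processing notes), for probes designed on rat build rn4. Its deposited processed signal is a linear intensity after subtraction of background and a spatial trend, unscaled between arrays. The authors' series table holds log2 values for 30505 probes, each centred on its median over the arrays, with the scaling before that unknown. It served as an alternative, but its differences for the 8 genes nearly equalled the reported ones (Spam1 −2.464 against −2.465, Zpbp2 −0.03351 against −0.03404). It is therefore not an independent check. Other deposited columns are flags of 0 or 1 for spots well above background, saturated or outlying.

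Control and outlier spots were left out, spots of a probe were averaged on the log2 scale, and the 75th percentile over probes was subtracted. Probes were named by accession without version from the RefSeq table of GRCr8, which named 17998 of 30367 probes. Kept probes had a share of at least 0.5 of spots well above background on all arrays of either group, and of several probes of a gene the one with the highest mean was used. The 10236 genes left entered a two-sided test in limma 3.58.1 (functions lmFit and eBayes, R 4.3.3). All adjusted p-values come from it, apart from those of the permutation comparison of Zpbp with Zpbp2. All 8 genes passed the filter, Acrv1 through the young group alone, and no spot was saturated. Passing through 1 group alone favours a lower value in the other group, for Acrv1 as for any such gene. The number of arrays limits the precision. The fit was tested on simulated data.

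The genes and the 14 other lists were chosen with earlier results of these data known. Named were the 8 genes, called members or the 4 with the smallest p of each acrosome, fusion, regulator or spermatid list, up to 2 of each marker list described, Cd9, and the 10 genes most correlated with the mean of the 8. Alternatives covered scaling, background correction, filters, the choice of probes, thresholds, the variance model, array weights, a block for the replicate number and leaving out each array.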

Additional observations from a re-analysis of the deposited data

Results flagged for a closer look

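Among 56 genes named under the rule, 112 groups of 4 values were examined for a sample far from the other 3, and 7 were found, none of them in the 8 acrosome and fusion genes. Chance gives about 1 in 20. In young replicate 1 the signal was lowest for Tex101 (3.66, others 3.92 to 3.93), Adgre1 (−4.06, others −2.71 to −2.53) and Col3a1 (−4.25, others −2.65 to −2.37) and highest for the androgen-binding globulin gene Shbg (7.02, others 6.68 to 6.71). In aged replicate 2 the signal was lowest for Actl9 (−0.082, others 0.84 to 0.99), Tekt4 (−0.99, others −0.09 to −0.05) and Dusp13b (−1.30, others −0.54 to −0.41). All are log2 values over the array's 75th percentile.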

How the results depend on the processing

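The count of called genes depended on the processing, and so did the count among the 8 acrosome and fusion genes. Of all genes 67 were called, 16 lower and 51 higher. The number was 27 with quantile scaling, 1330 with median scaling, 1004 with spike-in scaling, 630 and 132 with normexp correction and percentile or quantile scaling, 427 with an intensity trend, 4530 with array weights and 1674 at an adjusted p under 0.10. In limma 0 genes were called without scaling, without the filter on dim probes or with unnamed probes tested too, against 1389, 3340 and 4929 at an unadjusted p under 0.05. Lower genes made up 23.9% of the calls, against 11.1% with quantile scaling, 99.4% with spike-in scaling, 42.4% with normexp and percentile scaling, and 42.9% of 98 with the percentile taken over spots, chosen after the data were seen. The median gene moved from 0.11 to 0.26 with median scaling and to −0.35 with spike-in scaling, where the median of the 8 genes was −0.79 and −1.395. Of the 8 genes 0 were called as reported, where 0.156% of all genes were called lower. The count, all lower, was 4 with median scaling (2.57% of all genes called lower), 6 with spike-in scaling (9.75%) and 5 with normexp and percentile scaling (2.61%). It was 3 with an intensity trend (1.46%), 7 with array weights (16.3%) and 6 at an adjusted p under 0.10 (7.11%). Leaving out 1 array gave 0 to 3776 called genes and 0 to 7 of the 8, the highest of both without young replicate 1. Zpbp2 turned positive with median scaling (0.12), and ran from −0.13 to 0.051 when arrays were left out, positive without young replicate 4, aged replicate 3 or aged replicate 4. The cause of these shifts was not tested. The other 7 genes were lower under all 23 alternatives to the reported values. Not every alternative could change a sign. The differences of these 7 genes stayed the same without the filter on dim probes and with the mean of probes. They also stayed the same with unnamed probes tested too, an intensity trend or the replicate block. The authors' log2 table gave 71 called genes and 0 of the 8.

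With the replicate number as a block, 0 genes and 0 of the 8 were called, with 3231 genes and 6 of the 8 at an unadjusted p under 0.05. The deviations of same-numbered arrays correlated at −0.26, −0.12, 0.44 and 0.35 over genes, so the numbers were not taken to pair the samples.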
